A study of Homo sapiens with 4 samples.

Results

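The DNA microarray data were searched for genes whose signal was lower after nontypeable Haemophilus influenzae (NTHi) in both of the THP-1 sublines studied, and 31 genes were found among 7520 eligible genes, of 19775 genes on the array. The 31 genes were selected on the measured signals themselves. For each gene, the brightest probe set listed for that gene alone was used. Its signal without NTHi had to be at least 1.3 times the signal with NTHi in Siglec-14/THP-1 and also in Siglec-5/THP-1. Both signals without NTHi had to reach a floor of 105, which made a gene eligible, and the gene could not be at least 1.75-fold higher in Siglec-5/THP-1 than in Siglec-14/THP-1 in both conditions. The low ratios of these genes therefore follow from the choice, and their values are given as a description. Folds below are the signal without NTHi over the signal with NTHi, as in this rule, so that a fold above 1 means lower with NTHi.

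THP-1 is a human monocytic leukaemia cell line. Its sublines carry either Siglec-14, a sialic acid-binding receptor of myeloid cells that signals for activation, or Siglec-5, a closely related receptor that inhibits and serves as the control. Each subline was incubated for 6 h with heat-killed NTHi strain 2019 at 100 bacteria per cell (Siglec-14,NTHi[+] and Siglec-5,NTHi[+]) or with no bacteria (Siglec-14,NTHi[-] and Siglec-5,NTHi[-]), and 250 ng of total RNA was labelled for an Affymetrix U133 Plus 2.0 expression array. Each of these 4 conditions was measured on 1 array, so no value below has an error, and an effect of NTHi cannot be told apart from any other difference between the arrays compared. A model of line plus NTHi, with no interaction, would leave 1 residual degree of freedom, but its NTHi term is made of the contrasts that chose the genes, so no test was run. The sublines stand for monocytes with and without Siglec-14, but they are leukaemia cells, and whether each is a single clone is not stated in the labels or methods.

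When monocytes meet Gram-negative bacteria, Toll-like receptors and other sensors start the transcription of cytokine and chemokine genes within hours. Over the same period other messages decline, as genes of the resting state are transcribed less and short-lived messages are degraded. A known example is CCR2, the receptor for the chemokine CCL2, which monocytes lose on contact with bacterial products. A signal on this type of array is a hybridization intensity near the 3' end of a transcript, so that different probe sets of a gene may report different transcript forms.

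The median signal of the eligible genes was 465 in Siglec-14,NTHi[+], 436 in Siglec-14,NTHi[-], 446 in Siglec-5,NTHi[+] and 482 in Siglec-5,NTHi[-]. Of 9 monocyte markers measured, 4 reached the floor on some array (LYZ, ELANE, MPO and ITGAM), while the highest signal of CD14 was 11.4. SIGLEC5 had signals of 19.5 in Siglec-14,NTHi[+], 21.3 in Siglec-14,NTHi[-], 21.6 in Siglec-5,NTHi[+] and 4.13 in Siglec-5,NTHi[-], against a median of 16.02 over all probe sets. These values are near background and did not separate the sublines. Whether the probes cover the introduced constructs is not stated in the labels or methods, and no probe set is listed for SIGLEC14 alone, so the array gives no check of the labels. Of 3 natural killer cell markers, 1 reached the floor. GNLY, which encodes granulysin, had 409.7 in Siglec-14,NTHi[+] and 360 in Siglec-14,NTHi[-], and 2.14 in Siglec-5,NTHi[+] and 3.71 in Siglec-5,NTHi[-], while KLRD1 and NCAM1 stayed below the floor on all 4 arrays.

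In the signals as deposited, genes with a lower signal after NTHi were fewer in Siglec-14/THP-1 than in Siglec-5/THP-1. This order turned round with the arrays scaled to a trimmed mean but not with the arrays scaled to equal medians. At 1.3-fold, 109 eligible genes were lower with NTHi in Siglec-14/THP-1 (1.45%), 435 in Siglec-5/THP-1 (5.78%) and 32 in both (0.426%). The shared genes made up 29.4% of those lower in Siglec-14/THP-1 and 7.36% of those lower in Siglec-5/THP-1. Higher signals with NTHi were seen for 359 genes in Siglec-14/THP-1 (4.77%), 113 in Siglec-5/THP-1 (1.5%) and 80 in both (1.06%). The median log2 ratio of NTHi[+] over NTHi[-] over all eligible genes was 0.09 in Siglec-14/THP-1 and -0.11 in Siglec-5/THP-1, with SDs over genes of 0.19 and 0.21, so the bulk of genes sat on opposite sides of 0 in the sublines. With each array scaled to the same trimmed mean, 210 genes were lower and 190 higher with NTHi in Siglec-14/THP-1. In Siglec-5/THP-1, 156 were lower and 197 higher. With equal medians, 93 were lower and 412 higher in Siglec-14/THP-1, and 163 lower and 189 higher in Siglec-5/THP-1. The split between lower and higher genes thus depended on the scaling.

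**Figure D1:**
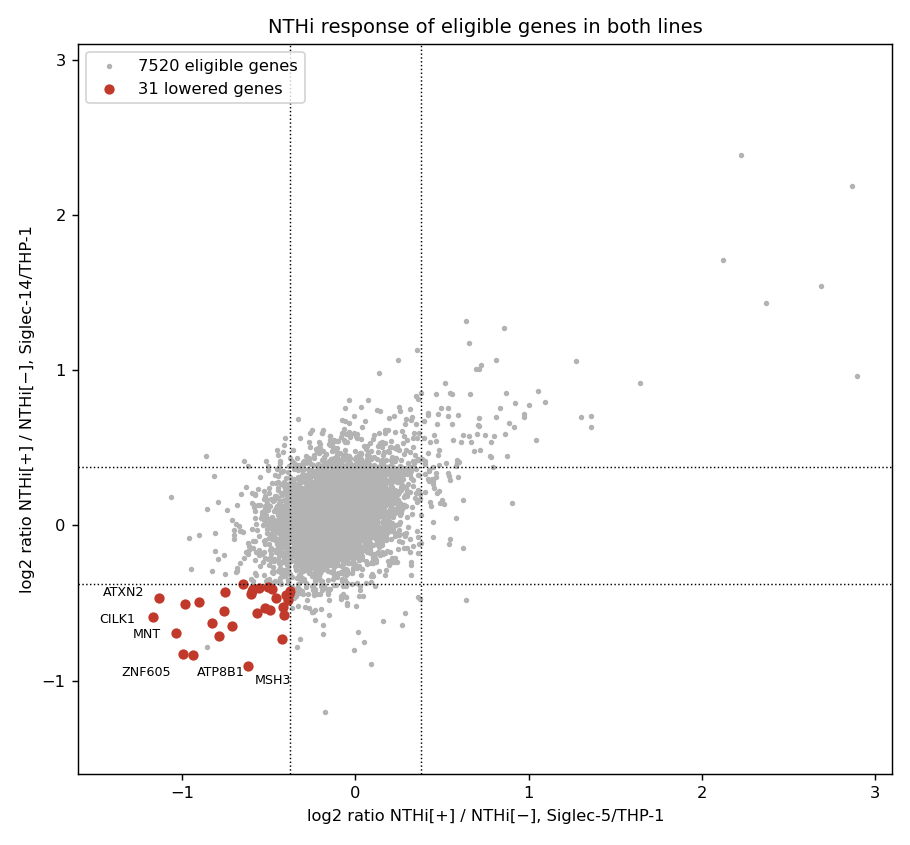
Log2 ratios of NTHi[+] over NTHi[-] in Siglec-5/THP-1 (horizontal) and Siglec-14/THP-1 (vertical) for the 7520 eligible genes (grey) and the 31 selected genes (red). Dotted lines stand at 1.3-fold in either direction, and the red points occupy the lower left corner because the choice put them there.

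The 31 genes were lower with NTHi by modest amounts. The fold ranged between 1.302 and 1.87 in Siglec-14/THP-1 (median 1.42) and between 1.302 and 2.24 in Siglec-5/THP-1 (median 1.52), and the median log2 ratios were -0.51 and -0.60. In all, 8 genes passed 1.5-fold in both sublines, and 17 stayed under 1.4-fold in the subline with the smaller fold. Of the 31 genes, 0 passed 2-fold in Siglec-14/THP-1 and 3 did in Siglec-5/THP-1 (CILK1, ATXN2 and MNT). The fold was larger in Siglec-5/THP-1 for 20 genes and in Siglec-14/THP-1 for 11. Relative to the median of all eligible genes in the same subline, the larger decrease was in Siglec-5/THP-1 for 8 genes and in Siglec-14/THP-1 for 23.

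The genes just inside the threshold by their smaller fold were LMNB1 (1.31), MATR3 (1.31), TMEM177 (1.302) and RGS14 (1.302). Those just outside were RFPL1S (1.298), CACNA2D3 (1.296), BANK1 (1.294) and ANKRD55 (1.291). The clause on the lines left out SKIDA1, which had 79.7 in Siglec-14,NTHi[+] and 137 in Siglec-14,NTHi[-], and 161 in Siglec-5,NTHi[+] and 292 in Siglec-5,NTHi[-]. Most of the selected genes also lay close to the floor on signal. The median of their mean signals over the 4 arrays was 174, against 463 for all eligible genes, and 17 of the 31 (54.8%) had a mean under 210, 2 times the floor, against 20.1% of eligible genes. In 6 of them both signals with NTHi were under the floor (ZNF605, GUSBP14, CILK1, MARCHF8, ATXN2 and RGS14). Mean signals over 500 were seen for 7 genes (LMNB1, MALAT1, DEPDC1B, ATP11B, LUC7L, HP and CCR2).

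**Figure D2:**
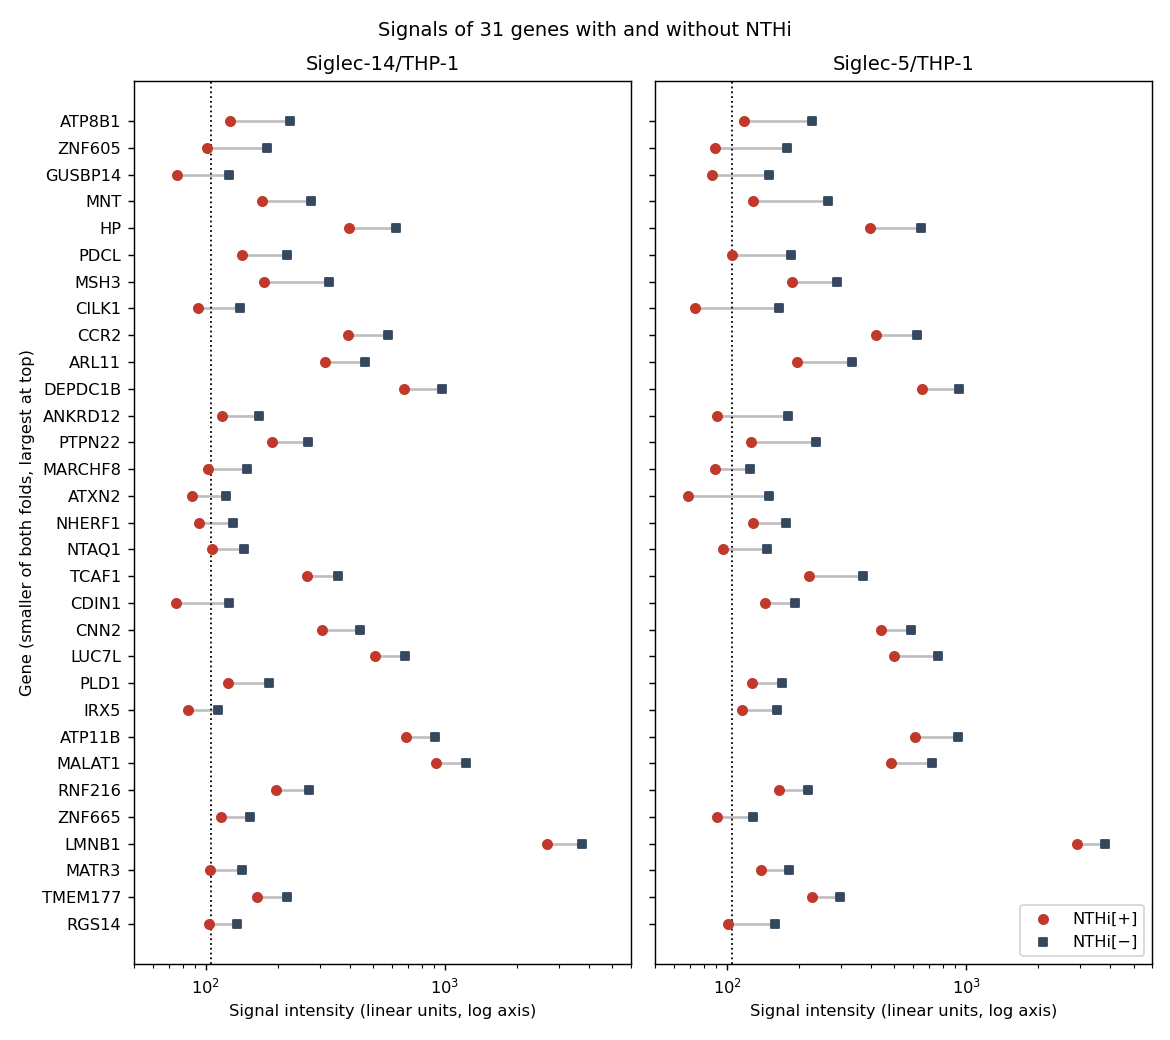
Signal intensities (log axis) of the 31 genes with NTHi (red circles) and without NTHi (dark squares) in Siglec-14/THP-1 (left) and Siglec-5/THP-1 (right), ordered by the smaller of both folds. The dotted line is the floor of 105 required without NTHi, and most genes lie close to it, while LMNB1 lies between 2665 and 3789.

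Among surface receptors, CCR2 was the gene with the closest values in the sublines. Its signal was 391.9 in Siglec-14,NTHi[+] and 578 in Siglec-14,NTHi[-], and 418 in Siglec-5,NTHi[+] and 621 in Siglec-5,NTHi[-]. The fold was 1.48 in each subline, and the levels of the sublines lay within 1.07-fold of each other in both conditions. A dimmer second probe set of CCR2 was also lower with NTHi, at 40.3 in Siglec-14,NTHi[+] and 61.2 in Siglec-14,NTHi[-], and at 41.5 in Siglec-5,NTHi[+] and 51.2 in Siglec-5,NTHi[-]. Of 6 eligible chemokine and chemoattractant receptors, 1 was at least 1.3-fold lower in Siglec-14/THP-1, 3 in Siglec-5/THP-1 and 1, CCR2, in both. A further 1 was higher in both. Over all eligible genes, 1.45% were lower in Siglec-14/THP-1, 5.78% in Siglec-5/THP-1 and 0.426% in both, and 1.06% were higher in both. CXCR4, the receptor for CXCL12, had 268 in Siglec-14,NTHi[+] and 286 in Siglec-14,NTHi[-], and 505 in Siglec-5,NTHi[+] and 568 in Siglec-5,NTHi[-], folds of 1.07 and 1.12 that did not reach the threshold.

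The stretches upstream of CCR2 and of 3 other selected genes are shown here because their start sites are in the promoter table, they were at least 1.4-fold lower with NTHi in both sublines, and they held the searched motifs in different arrangements. The sequences are the 150 bases before the start site in RefSeq (GRCh38.p14), 5' to 3' on the strand of the gene, at chr3:46353961-46354110 (+ strand) for CCR2, chr5:60700167-60700316 (- strand) for DEPDC1B, chr17:2401061-2401210 (- strand) for MNT and chr9:122828589-122828738 (- strand) for PDCL. Capitals mark the CCAAT box (CCAAT), the cell cycle homology region (TTTGAA) and the Sp1/KLF motif (GGGCGG) read on either strand, and in DEPDC1B an Sp1/KLF motif on the opposite strand overlaps a CCAAT box.
CCR2: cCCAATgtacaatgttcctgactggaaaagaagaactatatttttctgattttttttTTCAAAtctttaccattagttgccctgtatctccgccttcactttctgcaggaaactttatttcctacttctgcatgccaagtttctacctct
DEPDC1B: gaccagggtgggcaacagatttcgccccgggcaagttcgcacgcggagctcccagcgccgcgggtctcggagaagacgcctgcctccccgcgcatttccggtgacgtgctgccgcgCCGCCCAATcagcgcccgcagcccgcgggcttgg
MNT: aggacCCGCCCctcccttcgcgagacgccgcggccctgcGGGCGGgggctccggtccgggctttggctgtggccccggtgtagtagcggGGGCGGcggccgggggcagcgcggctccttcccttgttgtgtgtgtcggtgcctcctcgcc
PDCL: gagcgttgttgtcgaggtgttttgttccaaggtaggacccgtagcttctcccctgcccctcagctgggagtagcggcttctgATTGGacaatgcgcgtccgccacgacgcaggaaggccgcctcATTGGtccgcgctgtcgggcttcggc

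The letters differed among these 4 upstream stretches. CCR2 had CCAAT and TTTGAA (on the opposite strand) and no GGGCGG, MNT had GGGCGG in 3 places and no CCAAT, and PDCL had CCAAT in 2 places, both on the opposite strand. Over the 250 bases upstream, a promoter was found in the table for 22 of the 31 genes. CCAAT was in 9 of the 22 (40.9%, against 32.9% of all 27305 promoters), GGGCGG in 12 (54.5%, against 41.6%) and TTTGAA, known from cell cycle genes repressed in resting cells, in 4 (18.2%, against 13.7%). The E2F-type motif TTTGGCGC was in 1 (MSH3, against 0.549% of all promoters) and TTTCCCGC in 0 (against 1.4%). The E-box CACGTG, to which MYC and MNT bind with MAX, was in 1 (MNT itself, against 6.33%), and the ETS motif CCGGAAGT in 0 (against 3.6%). Each motif was searched on both strands, and a match shows only that the letters are present in the window.

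PDCL, which helps to assemble the beta and gamma subunits of G proteins, had 141 in Siglec-14,NTHi[+] and 219 in Siglec-14,NTHi[-], and 104 in Siglec-5,NTHi[+] and 185 in Siglec-5,NTHi[-], folds of 1.55 and 1.77. RGS14, which speeds the turning off of Gi proteins, had 103 in Siglec-14,NTHi[+] and 135 in Siglec-14,NTHi[-], and 101 in Siglec-5,NTHi[+] and 159 in Siglec-5,NTHi[-]. Of the 16 eligible genes on the list of small GTPase, phosphoinositide and kinase signalling, 0 were lower in both sublines, and of 7 on the list of purine, adrenergic and other G protein-coupled receptors, 0 were. Of 5 eligible genes with RGS symbols, RGS14 was the 1 lower in both sublines, against 0.426% of all eligible genes. ARL11, an ARF-like GTPase, had 315 in Siglec-14,NTHi[+] and 461 in Siglec-14,NTHi[-], and 195 in Siglec-5,NTHi[+] and 331 in Siglec-5,NTHi[-], so that its level was 1.61-fold higher in Siglec-14/THP-1 with NTHi and 1.39-fold higher without.

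DEPDC1B, a DEP domain protein that acts at entry into mitosis, had 671 in Siglec-14,NTHi[+] and 973 in Siglec-14,NTHi[-], and 650 in Siglec-5,NTHi[+] and 934 in Siglec-5,NTHi[-]. The folds were 1.45 and 1.44, and like CCR2 it was at nearly the same level in both sublines in each condition. Of 28 eligible genes of mitosis and G2/M, 0 were at least 1.3-fold lower in either subline, and of 28 eligible genes of DNA replication and G1/S, 0 were lower in Siglec-14/THP-1 and 2 in Siglec-5/THP-1. These counts are near the shares of all eligible genes, 1.45% and 5.78%.

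PTPN22, a tyrosine phosphatase that restrains lymphocyte receptor signalling, had 189 in Siglec-14,NTHi[+] and 266 in Siglec-14,NTHi[-], and 126 in Siglec-5,NTHi[+] and 235 in Siglec-5,NTHi[-]. PLD1, which makes phosphatidic acid from phosphatidylcholine, had 123 in Siglec-14,NTHi[+] and 184 in Siglec-14,NTHi[-], and 127 in Siglec-5,NTHi[+] and 169 in Siglec-5,NTHi[-]. CILK1, a kinase of primary cilia, had the largest fold in Siglec-5/THP-1, 2.24, with 73.7 in Siglec-5,NTHi[+] and 165 in Siglec-5,NTHi[-], and with 92.4 in Siglec-14,NTHi[+] and 139 in Siglec-14,NTHi[-]. Of 8 eligible genes with PTPN symbols, 1 was lower in both sublines, PTPN22, against 0.426% of all eligible genes. The signals of PLD1 given here lay within 1.1-fold between the sublines in each condition. The next brightest PLD1 probe set was higher with NTHi in Siglec-14/THP-1, with 130 in Siglec-14,NTHi[+] and 91.9 in Siglec-14,NTHi[-]. It had 101 in Siglec-5,NTHi[+] and 104 in Siglec-5,NTHi[-]. Of the 4 other PLD1 probe sets above the median signal, 2 were lower with NTHi in both sublines.

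Genes of the cytoskeleton and of membrane scaffolds formed a smaller set. CNN2, the actin-binding calponin 2, had 305 in Siglec-14,NTHi[+] and 440 in Siglec-14,NTHi[-], and 441 in Siglec-5,NTHi[+] and 590 in Siglec-5,NTHi[-]. NHERF1, a scaffold that binds ezrin, had 94.1 in Siglec-14,NTHi[+] and 130.3 in Siglec-14,NTHi[-], and 128 in Siglec-5,NTHi[+] and 176 in Siglec-5,NTHi[-]. Both were lower in Siglec-14/THP-1 than in Siglec-5/THP-1 in each condition. TCAF1, a partner of the TRPM8 channel, had 265 in Siglec-14,NTHi[+] and 357 in Siglec-14,NTHi[-], and 219 in Siglec-5,NTHi[+] and 370 in Siglec-5,NTHi[-].

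A pair of P4-ATPases, the flippases that move phospholipids to the inner leaflet of membranes, were among the 31 genes. ATP8B1, mutated in an inherited cholestasis, had 126 in Siglec-14,NTHi[+] and 225 in Siglec-14,NTHi[-], and 118 in Siglec-5,NTHi[+] and 226 in Siglec-5,NTHi[-], folds of 1.78 and 1.92. Its probe set was of a type (x_at) whose probes can match unrelated transcripts. With such probe sets left out, ATP8B1 did not meet the rule. ATP11B, a flippase of endosomal and Golgi membranes, had 685 in Siglec-14,NTHi[+] and 911 in Siglec-14,NTHi[-], and 611 in Siglec-5,NTHi[+] and 920 in Siglec-5,NTHi[-], folds of 1.33 and 1.51. Of 9 eligible flippases and their subunit, 2 were lower in Siglec-14/THP-1, 3 in Siglec-5/THP-1 and 2 in both, the last being these selected genes. The matching shares of all eligible genes were 1.45%, 5.78% and 0.426%. ATP9B missed the rule in Siglec-14/THP-1 alone, with folds of 1.24 and 1.31. This family, the MYC and MAX network, the lamins, the mismatch repair genes and the groups by symbol (RGS, PTPN, ZNF, MARCHF and RNF) were drawn up after the values had been seen.

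A further group of the selected genes acts in transcription and the nucleus. MNT, a MAX partner that represses MYC target genes, had 171 in Siglec-14,NTHi[+] and 277 in Siglec-14,NTHi[-], and 128 in Siglec-5,NTHi[+] and 264 in Siglec-5,NTHi[-], folds of 1.61 and 2.05. MYC itself had folds of 1.0004 and 1.08 and MAX of 0.999 and 1.03. Of 8 eligible genes of this network, MNT alone was lower in both sublines, against 0.426% of all eligible genes. MXD1, another MAX-binding repressor, was 1.38-fold higher with NTHi in Siglec-14/THP-1, while its fold was 1.07 in Siglec-5/THP-1. ANKRD12, an ankyrin repeat protein that binds nuclear receptor coactivators, had 117 in Siglec-14,NTHi[+] and 166 in Siglec-14,NTHi[-], and 91.2 in Siglec-5,NTHi[+] and 180.5 in Siglec-5,NTHi[-].

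The zinc finger gene ZNF605 had 102 in Siglec-14,NTHi[+] and 181 in Siglec-14,NTHi[-], and 89.1 in Siglec-5,NTHi[+] and 178 in Siglec-5,NTHi[-]. Another, ZNF665, had 116 in Siglec-14,NTHi[+] and 152 in Siglec-14,NTHi[-], and 90.7 in Siglec-5,NTHi[+] and 129 in Siglec-5,NTHi[-]. The folds of ZNF605, 1.78 and 2.00, were thus larger than those of ZNF665, 1.32 and 1.42. Of 180 eligible genes with ZNF symbols, 6 were lower in Siglec-14/THP-1, 12 in Siglec-5/THP-1 and these 2 in both. Over all eligible genes the shares were 1.45%, 5.78% and 0.426%. IRX5, an Iroquois homeobox factor, had 84.3 in Siglec-14,NTHi[+] and 112 in Siglec-14,NTHi[-], and 116 in Siglec-5,NTHi[+] and 162 in Siglec-5,NTHi[-].

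LMNB1, which encodes lamin B1 of the nuclear lamina, had the highest signals of the 31 genes. It had 2665 in Siglec-14,NTHi[+] and 3724 in Siglec-14,NTHi[-], and 2892 in Siglec-5,NTHi[+] and 3789 in Siglec-5,NTHi[-], folds of 1.397 and 1.31. Of 9 eligible lamins and nuclear envelope genes, 1 was lower in both sublines, against 0.426% of all eligible genes. The folds of LMNA, LMNB2 and LBR, which encode lamin A, lamin B2 and the lamin B receptor, were between 0.90 and 0.99 in Siglec-14/THP-1 and between 0.91 and 1.08 in Siglec-5/THP-1, and did not reach the threshold.

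MSH3, a mismatch repair gene, had the largest fold of the 31 genes in Siglec-14/THP-1, 1.87, with 175 in Siglec-14,NTHi[+] and 328 in Siglec-14,NTHi[-], and with 186 in Siglec-5,NTHi[+] and 287 in Siglec-5,NTHi[-]. Like that of ATP8B1, its probe set was of the x_at type, and MSH3 did not meet the rule with such probe sets left out. MSH6, another mismatch repair gene, had folds of 0.97 and 1.02. MSH3 was the 1 of 4 eligible mismatch repair genes lower in both sublines, against 0.426% of all eligible genes. Of 18 eligible genes of the DNA repair list, which did not hold MSH3, 0 were lower in either subline.

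RNA-binding and RNA genes were also present. MALAT1, a long noncoding RNA of nuclear speckles, had 921 in Siglec-14,NTHi[+] and 1219 in Siglec-14,NTHi[-], and 487 in Siglec-5,NTHi[+] and 717 in Siglec-5,NTHi[-]. Its level was 1.89-fold higher in Siglec-14/THP-1 than in Siglec-5/THP-1 with NTHi and 1.70-fold higher without. LUC7L, a protein associated with the U1 small nuclear ribonucleoprotein, had 508 in Siglec-14,NTHi[+] and 680 in Siglec-14,NTHi[-], and 500 in Siglec-5,NTHi[+] and 759 in Siglec-5,NTHi[-]. The next brightest LUC7L probe set was not lower with NTHi in either subline. It had 355 in Siglec-14,NTHi[+] and 307 in Siglec-14,NTHi[-], and 342 in Siglec-5,NTHi[+] and 330 in Siglec-5,NTHi[-]. Of 22 eligible RNA-binding and splicing genes, MALAT1 alone was lower in both sublines, against 0.426% of all eligible genes. LUC7L was not on that list.

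ATXN2, an RNA-binding protein expanded in a spinocerebellar ataxia, had folds that differed most between the sublines, with 87.8 in Siglec-14,NTHi[+] and 121 in Siglec-14,NTHi[-] (1.38), and 68.6 in Siglec-5,NTHi[+] and 150.3 in Siglec-5,NTHi[-] (2.19). MATR3, an RNA-binding protein of the nuclear matrix, had 104 in Siglec-14,NTHi[+] and 141 in Siglec-14,NTHi[-], and 138 in Siglec-5,NTHi[+] and 181 in Siglec-5,NTHi[-]. The probe set of MATR3 counted here was far dimmer than probe sets listed for MATR3 together with SNHG4. The brightest of those had 4382 in Siglec-14,NTHi[+] and 4062 in Siglec-14,NTHi[-], and 4388 in Siglec-5,NTHi[+] and 4716 in Siglec-5,NTHi[-], so that it was not lower with NTHi in Siglec-14/THP-1.

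Genes of ubiquitin transfer and protein decay were also among the 31. MARCHF8, a membrane ubiquitin ligase that removes receptors from the cell surface, had 102 in Siglec-14,NTHi[+] and 149 in Siglec-14,NTHi[-], and 88.9 in Siglec-5,NTHi[+] and 125 in Siglec-5,NTHi[-]. RNF216, a ubiquitin ligase that acts on Toll-like receptors, had 197 in Siglec-14,NTHi[+] and 269 in Siglec-14,NTHi[-], and 165 in Siglec-5,NTHi[+] and 218 in Siglec-5,NTHi[-]. Its 2 other probe sets above the median signal were higher with NTHi in Siglec-14/THP-1. The brighter of them had 138 in Siglec-14,NTHi[+] and 117 in Siglec-14,NTHi[-], and 99.0 in Siglec-5,NTHi[+] and 112 in Siglec-5,NTHi[-]. RNF216 met the rule under none of 5 other scalings of the arrays. NTAQ1, an amidase of the N-degron pathway, had folds of 1.36 and 1.52. Of 4 eligible genes with MARCHF symbols 1 was lower in both sublines. Of 38 with RNF symbols, 2 were lower in Siglec-14/THP-1, 5 in Siglec-5/THP-1 and 1 in both. Over all eligible genes the shares were 1.45% in Siglec-14/THP-1, 5.78% in Siglec-5/THP-1 and 0.426% in both.

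The remaining genes had separate roles. HP, which encodes haptoglobin, the plasma protein that captures free haemoglobin, had 398 in Siglec-14,NTHi[+] and 623 in Siglec-14,NTHi[-], and 395 in Siglec-5,NTHi[+] and 647 in Siglec-5,NTHi[-], folds of 1.56 and 1.64. Because HP and HPR are near-identical, a probe set of HP may also read HPR, and a probe set listed for both had folds of 1.06 and 1.204. CDIN1, a partner of codanin-1 in red cell formation, had 75.3 in Siglec-14,NTHi[+] and 125 in Siglec-14,NTHi[-], and 144 in Siglec-5,NTHi[+] and 193 in Siglec-5,NTHi[-]. CDIN1 was the gene with the lowest level in Siglec-14/THP-1 relative to Siglec-5/THP-1, 0.52-fold with NTHi and 0.65-fold without. TMEM177, a mitochondrial membrane protein, had folds of 1.34 and 1.302. GUSBP14, a pseudogene of the lysosomal beta-glucuronidase gene with near-identical copies, had folds of 1.64 and 1.73, and its value is uncertain for that reason.

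The level of the 31 genes was compared between the sublines. It was higher in Siglec-14/THP-1 in both conditions for 10 genes and lower in both for 9. It lay within 1.2-fold between the sublines for 15 genes with NTHi (48.4%, against 65.9% of eligible genes) and for 20 genes without (64.5%, against 57.8%). A difference of at least 1.5-fold in both conditions was seen for 2 genes, MALAT1 and CDIN1, and higher levels in Siglec-5/THP-1 were bounded by the rule.

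Other probe sets of the same genes gave a different picture from the brightest ones. For 17 of the 31 genes, 40 further probe sets were listed for the gene alone and had signals without NTHi of at least 16.02, the median of all probe sets. Their median log2 ratio was 0.01 in Siglec-14/THP-1 and -0.13 in Siglec-5/THP-1, against 0.05 and -0.13 for 8130 such probe sets of all eligible genes. With NTHi, 19 of the 40 were lower in Siglec-14/THP-1, 27 in Siglec-5/THP-1, 12 in both and 6 in neither. Of the 8130, 31.4% were lower in both, so 12 of 40 lay close to that share. At least 1.3-fold lower in both was 1 of the 40, against 3.16% of the 8130. That probe set was of MALAT1, with 180 in Siglec-14,NTHi[+] and 365 in Siglec-14,NTHi[-], and 95.5 in Siglec-5,NTHi[+] and 198 in Siglec-5,NTHi[-].

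The genes differed in how far their probe sets went together. In 4 of the 17 genes (23.5%, against 19.1% of 4496 eligible genes), ATP8B1, GUSBP14, PDCL and CCR2, all other probe sets were lower with NTHi in both sublines. In 9 of the 17 (52.9%, against 44.3%) at least 1 was. All 3 other probe sets of ANKRD12 were not lower with NTHi in either subline, and the brightest of them had 102 in Siglec-14,NTHi[+] and 101 in Siglec-14,NTHi[-], and 106 in Siglec-5,NTHi[+] and 92.4 in Siglec-5,NTHi[-]. The nearly as bright second probe set of PTPN22 had 218 in Siglec-14,NTHi[+] and 219 in Siglec-14,NTHi[-], and 145 in Siglec-5,NTHi[+] and 158 in Siglec-5,NTHi[-], so its folds were 1.01 and 1.09. For MSH3 the second probe set had 287 in Siglec-14,NTHi[+] and 192 in Siglec-14,NTHi[-], higher with NTHi, and 226 in Siglec-5,NTHi[+] and 253 in Siglec-5,NTHi[-].

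Opposite readings were also seen for MNT and MALAT1. A dim probe set of MNT had 55.5 in Siglec-14,NTHi[+] and 23.2 in Siglec-14,NTHi[-], and 18.3 in Siglec-5,NTHi[+] and 35.9 in Siglec-5,NTHi[-]. A probe set of MALAT1 had 512 in Siglec-14,NTHi[+] and 708 in Siglec-14,NTHi[-], and 340 in Siglec-5,NTHi[+] and 78.5 in Siglec-5,NTHi[-], so it was 4.33-fold higher with NTHi in Siglec-5/THP-1. ATP11B had 5 further probe sets, of which 1 was lower with NTHi in both sublines. Whether these differences come from transcript forms or from the probes was not tested.

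**Figure D3:**
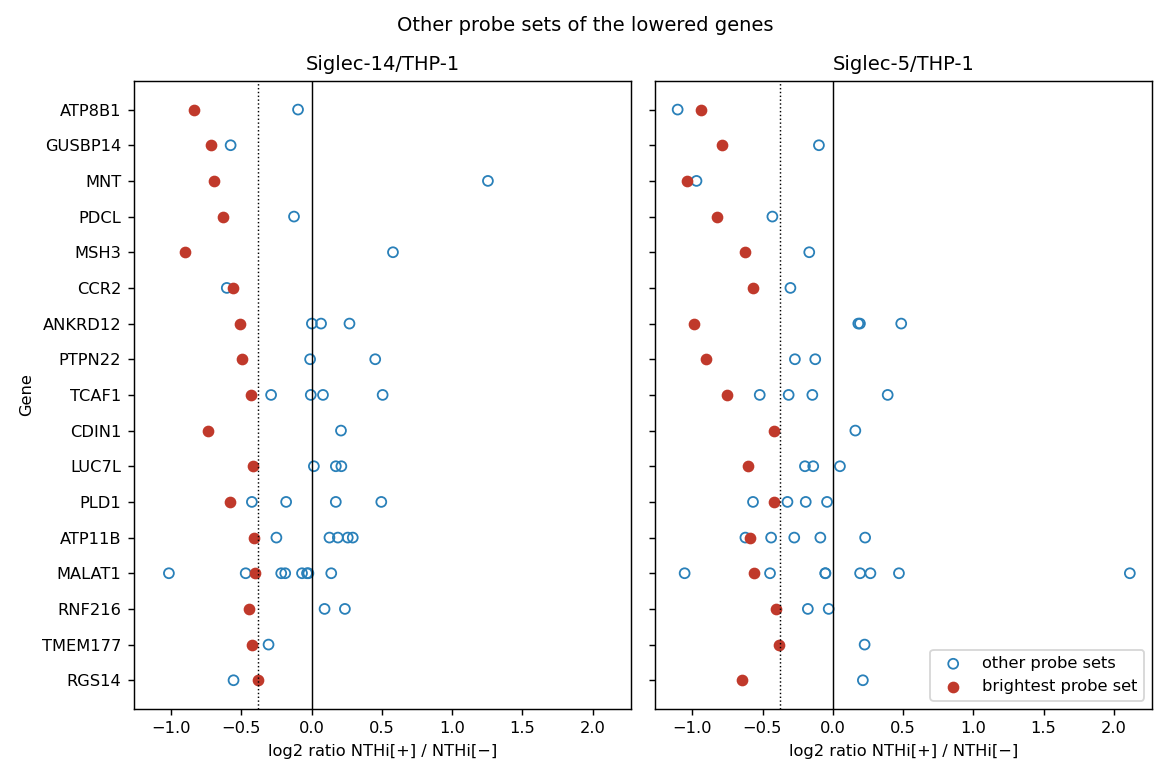
Log2 ratios of NTHi[+] over NTHi[-] in Siglec-14/THP-1 (left) and Siglec-5/THP-1 (right) for the brightest probe set (red) and the 40 other probe sets (open blue) of 17 selected genes. The line is at 0 and the dotted line at 1.3-fold lower, and the open circles lie on both sides of 0 while the red points are to the left of the dotted line by choice.

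Probe set types and chromosomes, which the rule did not use, were also tallied. Of the 31 brightest probe sets, 7 (22.6%) were of the x_at type, whose probes can match unrelated transcripts, against 6.58% of eligible genes. These were the probe sets of ATP8B1, GUSBP14, MSH3, ANKRD12, CNN2, MALAT1 and ZNF665. With x_at probe sets left out, none of these genes met the rule. A further 6 (19.4%) were of the s_at type, whose probes match several related transcripts, against 34.3%. By the RefSeq annotation (GRCh38.p14), 6 of the 31 genes (19.4%) lie on chromosome 5, against 4.79% of eligible genes, namely DEPDC1B, GUSBP14, MSH3, LMNB1, MATR3 and RGS14. Chromosome 5 was picked after the counts had been seen, as the chromosome with the most selected genes. The genes comprised 29 protein-coding genes, 1 long noncoding RNA and 1 transcribed pseudogene. The share of genes with a single probe set was 10 of 31 (32.3%, against 30.4%).

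Of the 40 lists of cell functions examined, 2 held any of the 31 genes, CCR2 in the chemoattractant receptors and MALAT1 in the RNA-binding and splicing factors. Lists with 0 genes lower in both sublines included the 20 eligible genes of fatty acid and lipid metabolism, the 22 of the respiratory chain, the 16 myeloid lineage transcription factors (2 lower in Siglec-5/THP-1) and the 24 chromatin regulators (1 lower in Siglec-5/THP-1). The inflammatory response list went the other way, with 6 of 6 eligible genes at least 1.3-fold higher in both sublines and median log2 ratios of 1.63 in Siglec-14/THP-1 and 2.30 in Siglec-5/THP-1. With 0.426% of all eligible genes lower in both sublines, a count of 0 or 1 in lists of this size cannot be told apart from that background.

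Which genes met the rule depended on how the arrays were scaled to each other. Under 5 other scalings, 20 of the 31 genes, among them CCR2, DEPDC1B, HP and MNT, met the rule each time, and 7 genes met it under none, LMNB1 and CNN2 among them. Among genes with more than 1 probe set, ATP8B1, GUSBP14, PDCL, CCR2, ARL11 and CILK1 met the rule under all 5 scalings and also had every probe set lower with NTHi in both sublines. The second probe sets of ARL11 and CILK1 were below the median signal of 16.02 in at least 1 condition without NTHi. The fold was 1.07 for that of ATP8B1 in Siglec-14/THP-1 and for that of GUSBP14 in Siglec-5/THP-1. With the geometric mean of all probe sets of a gene, CCR2 alone of these genes met the rule. ATP8B1, GUSBP14, ARL11 and CILK1 still passed 1.3-fold in both sublines. Their averaged signals without NTHi, however, were under the floor in at least 1 subline. PDCL fell just short of 1.3-fold in Siglec-14/THP-1.

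**Figure D4:**
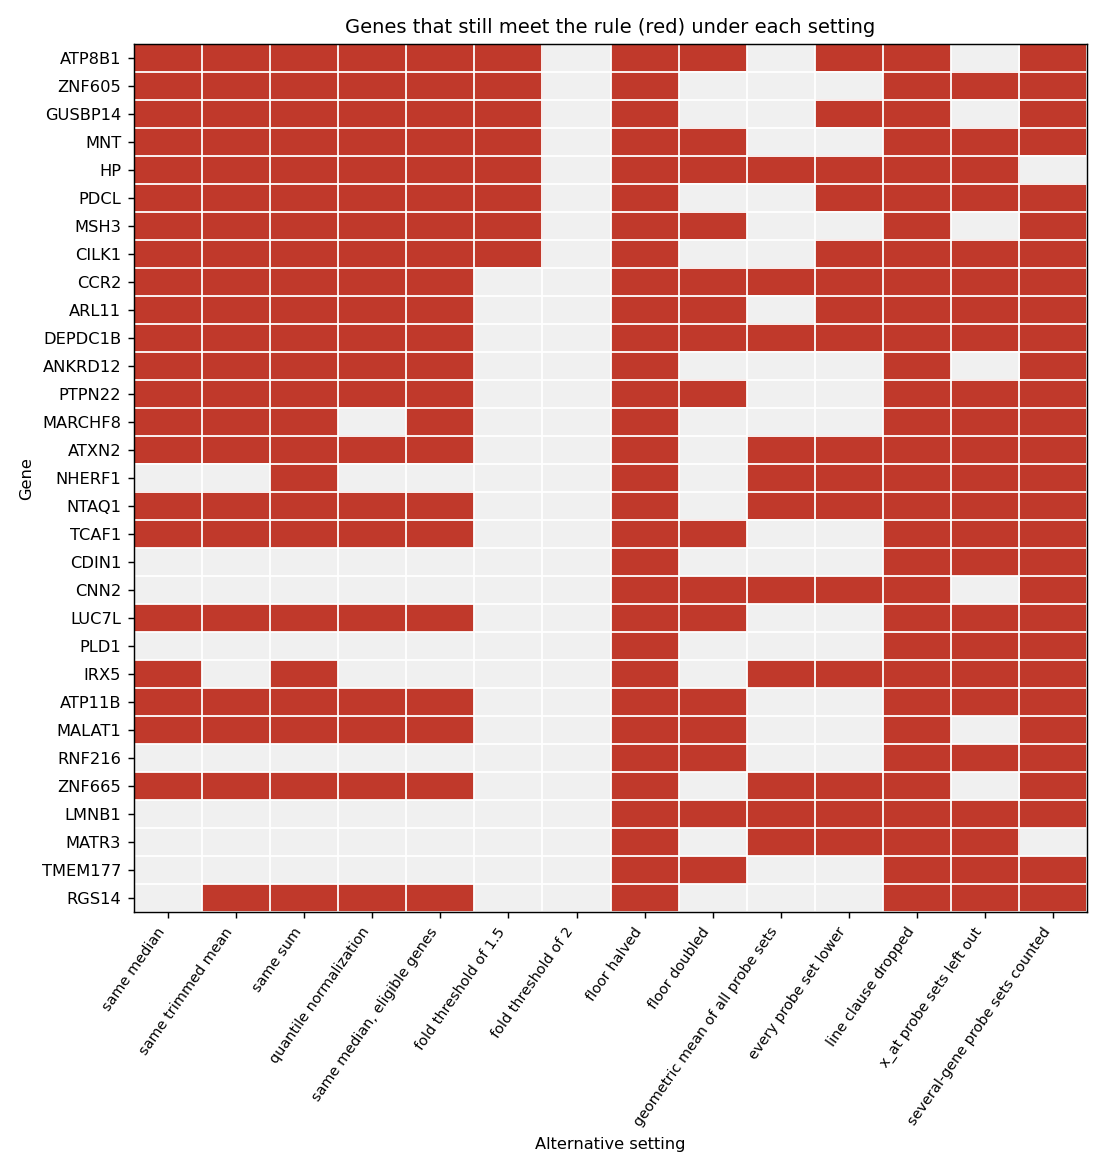
The 31 selected genes (vertical) against the 14 alternative settings (horizontal), with red where the gene still met the rule. DEPDC1B, CCR2 and HP met it under 12 of the 14 settings, while 7 genes, LMNB1 among them, met it under none of the 5 scalings in the leftmost columns.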

How the data were processed

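RNA of the 4 cell samples was hybridized to Affymetrix U133 Plus 2.0 arrays. Quantification by the authors used GeneChip Operating Software, with standardization on the summed signal of the probes. The deposited values are linear signal intensities of 54675 probe sets, and their sums differ between arrays. No further scaling was applied. Probe sets were named from the platform's annotation, which gives 41097 of them 1 gene, 1801 several and 11777 none, and all 31 genes matched RefSeq by gene ID. The rule given in the results was applied with Python 3.11.15, numpy 2.4.6 and pandas 2.3.3. The code was also run on simulated signals with genes lowered 2-fold in both sublines, a change that 0 of the 31 genes reached. That run checked the code alone and gives no measure of how reliable the rule is for these data. All 31 genes are named. The genes and lists were chosen with earlier results of these data known. No test was run, since both NTHi contrasts chose the genes, and 1 array per condition limits the precision. The alternatives were 5 scalings, other folds and floors, and other handling of probe sets. Promoters were taken from RefSeq, 1 per symbol. The serum measurements are not analysed here.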

Additional observations from a re-analysis of the deposited data

Results flagged for a closer look

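MSH3 stood out because a second probe set of the gene went in opposite directions in the sublines. Its log2 ratio of NTHi[+] over NTHi[-] was 0.58 in Siglec-14/THP-1 and -0.17 in Siglec-5/THP-1, whereas that of the brightest MSH3 probe set was -0.90 in Siglec-14/THP-1 and -0.62 in Siglec-5/THP-1. With 1 array per condition, this difference between the sublines was not tested.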

How the results depend on the processing

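The number of genes was 31 as reported. It was 8 at 1.5-fold and 0 at 2-fold, 75 with the floor at 52.5, 16 with the floor at 210, and 16 when every probe set of a gene had to be lower in both sublines. Which genes they were depended on the scaling: 22 genes passed when the arrays were given equal medians, 34 with the trimmed mean, 46 with the sum, 29 after quantile normalization and 34 with the median of eligible genes, which shared 22, 22, 24, 21 and 22 genes with the 31. In all, 20 genes passed under all 5 scalings and 7 under none of them (LMNB1, CDIN1, CNN2, PLD1, MATR3, RNF216 and TMEM177). With the geometric mean of all probe sets of a gene, 27 genes passed, 11 of them shared, and the log2 ratio reversed for ATP11B (0.035), MNT (0.28), MSH3 (1.11), PLD1 (0.20) and RGS14 (0.43) in Siglec-14/THP-1 and for CDIN1 (0.90), MARCHF8 (0.96) and ZNF605 (0.22) in Siglec-5/THP-1. Without x_at probe sets 25 genes passed, and 30 with probe sets of several genes counted. The median scaling of eligible genes and these last 2 choices were made after seeing the data. The split of eligible genes was 109 lower and 359 higher in Siglec-14/THP-1 and 435 lower and 113 higher in Siglec-5/THP-1, and with equal sums 294 lower and 154 higher in Siglec-14/THP-1 and 236 lower and 163 higher in Siglec-5/THP-1. The sublines give a pair of NTHi contrasts, but both chose the genes, so no paired fit was run, and leaving out an array would remove a contrast that the rule needs. Most of the 31 genes lay near the floor, where signal over background limits the precision.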

Other observations

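With a signal below the floor of 105 in at least 1 condition without NTHi, further genes with known roles had lower signals with NTHi in both sublines. They were picked after their values were seen. GPR183, an oxysterol receptor that guides immune cells, had 313 in Siglec-14,NTHi[+] and 482 in Siglec-14,NTHi[-], and 45.1 in Siglec-5,NTHi[+] and 80.1 in Siglec-5,NTHi[-]. SLC40A1, the iron exporter ferroportin, had 56.6 in Siglec-14,NTHi[+] and 73.7 in Siglec-14,NTHi[-], and 90.4 in Siglec-5,NTHi[+] and 142.6 in Siglec-5,NTHi[-]. PPARGC1A, a coactivator of mitochondrial genes, had 34.4 in Siglec-14,NTHi[+] and 74.6 in Siglec-14,NTHi[-], and 65.0 in Siglec-5,NTHi[+] and 91.9 in Siglec-5,NTHi[-].

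At 1.3-fold, 14 of 7520 eligible genes (0.186%) were lower with NTHi in Siglec-5/THP-1 and higher in Siglec-14/THP-1, and 1, BBS10, was the reverse. The median log2 ratio of all eligible genes lay on the same sides of 0 as in the 14 genes, at 0.09 in Siglec-14/THP-1 and -0.11 in Siglec-5/THP-1. With the arrays scaled to the same trimmed mean, the counts were 0 and 4. BBS10, a gene of Bardet-Biedl syndrome, had 109 in Siglec-14,NTHi[+] and 152 in Siglec-14,NTHi[-], and 170 in Siglec-5,NTHi[+] and 109 in Siglec-5,NTHi[-], and was picked after its values were seen. The difference between the sublines was not tested.

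Among 1420 probe sets of no gene or of several genes that reached the floor, 6 met the same folds (0.423%). Of these, 4 are listed for no gene and 2 for several genes, PMS2CL with PMS2 and RPL23AP7 with CENPBD2P.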
